A study of Mus musculus with 14 samples.

Results

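The mitochondrial ribosome is built from 2 subunits whose proteins are, in mammals, all encoded in the nucleus and imported, and the genes of these proteins are described here. They were taken by name, as the RefSeq protein-coding genes of GRCm38.p6 whose symbol begins with Mrpl or Mrps followed by a digit. This gave 78 of 21887 protein-coding genes on chromosomes 1 to 19, X and Y. Of the 78, 51 encode proteins of the large subunit and 26 of the small subunit. Mrps18a and Mrps30 were counted with the large subunit, where their proteins sit. Mrps36 carries the name but encodes a component of the 2-oxoglutarate dehydrogenase complex, and it is kept apart from both subunits.

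Mitochondrial ribosomes translate the few messages of mitochondrial DNA, which encode core subunits of the respiratory chain and ATP synthase. The small subunit decodes the message and the large subunit joins amino acids and feeds the chain into the inner membrane. T cells enlarge their mitochondria and raise mitochondrial translation when they are activated, and ETS factors, NRF1 and YY1 are known regulators of promoters of nuclear genes for mitochondrial proteins.

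The study used CUT&RUN, in which an antibody directs a nuclease to its target and the released DNA is sequenced, on mouse Th1 cells from wild-type C57BL/6J animals (WT) and from the strain labelled C57BL/6J-Ets1-SE-KO (KO). The label names Ets1, the gene of the T cell transcription factor ETS1, followed by SE, which it does not spell out. It does not say that the gene itself was removed, and KO is used here only as short for this strain. Naive CD4+ T cells of the spleen were grown for 6 days on plate-bound anti-CD3 with soluble anti-CD28, IL-12 at 10 ng/mL and IL-2 at 1 ng/mL, and live cells were sorted before CUT&RUN, so all groups share this culture. Antibodies to H3K27ac, an acetylation of active promoters and enhancers, to CTCF, a chromatin architectural protein, and to ETS1 were used in 2 libraries per genotype, and IgG in 1 library per genotype. By the titles, an antibody's 2 WT libraries repeat the assay on 1 biological replicate, whereas its 2 KO libraries come from 2 biological replicates. A WT spread is therefore technical. In bulk cells, a mark in fewer cells and a weaker mark per cell cannot be told apart. Even with the technical repeats counted as separate samples, an exact two-sided permutation test of 2 against 2 libraries cannot give a p below 0.333 for a gene, and WT has only 1 biological replicate. No gene was therefore tested, and the genotypes are described by whether their libraries overlap.

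Each library is a list of called peaks without read counts, so its depth is unknown. The H3K27ac and CTCF lists were longer in KO, at 26465 and 28647 against 24711 and 24581 peaks for H3K27ac and at 40502 and 39345 against 33144 and 31368 for CTCF. The ETS1 lists were uneven within each genotype. WT had 14013 and 23419 ETS1 peaks, while KO had 40705 and 9344. Across the Ets1 gene the WT libraries had H3K27ac peaks over 46.6 and 44.1 kb, the KO libraries over 24.2 and 23.4 kb. The libraries thus differed by genotype at the gene named in the strain label. All 8 T cell markers examined (Cd3e, Cd3d, Cd3g, Cd4, Cd28, Tbx21, Thy1 and Lck) carried H3K27ac in all 4 libraries. Cd8a, Pax5, Ms4a1, Lyz2 and the erythroid, NK and non-haematopoietic markers had none, while Cd8b1, Cd79a, Csf1r and Spi1 had peaks in all 4 libraries. The part of other cells in the results below was not tested.

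For each gene, the length of sequence under peaks was measured within 2 kb of either gene end, and a gene was called where at least 1 bp was covered. These windows often hold another gene. Of the 78 genes, 52 (66.7%) had another protein-coding gene within 2 kb. The share of all protein-coding genes with such a neighbour is not given here. Mrpl46 and Mrps11, which encode a large and a small subunit protein, run away from each other from starts 42 bp apart. Among the 69 genes present in the RefSeq promoter table, 24 (34.8%) had a start on the opposite strand, pointing away, within 1 kb. The same held for 8.48% of the 17492 genes of the table and for 17% of its genes with H3K27ac in all 4 libraries. The gap between such starts ran from 32 to 935 bp with a median of 136 bp, and 19 of the 24 lay within 250 bp. Peaks at these shared promoters cannot be assigned to the ribosomal gene alone. Mrpl4, Mrpl13, Mrpl15, Mrpl19, Mrpl38, Mrpl54, Mrps28, Mrps34 and Mrps35 are not in the table.

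Promoters of genes with and without an ETS1 call in their gene-end windows are shown first, as the 100 bases before the start, 5′ to 3′ on the gene's strand, from RefSeq GRCm38.p6. Mrpl47 and Mrpl34 held ETS1 peaks of high rank in all 4 libraries, and Mrpl45 and Mrps2 had no ETS1 peak in these windows in any library. The Mrps2 start shown lies outside its windows and had ETS1 peaks within 2 kb in 2 libraries. Capitals mark the ETS letters CGGAAG or their complement CTTCCG.
Mrpl47, chr3:32736756-32736855, minus strand: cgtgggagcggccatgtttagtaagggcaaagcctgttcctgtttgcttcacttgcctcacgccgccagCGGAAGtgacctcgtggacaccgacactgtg
Mrpl34, chr8:71464826-71464925, plus strand: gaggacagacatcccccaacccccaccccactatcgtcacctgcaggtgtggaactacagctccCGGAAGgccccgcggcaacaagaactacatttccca
Mrpl45, chr11:97315616-97315715, plus strand: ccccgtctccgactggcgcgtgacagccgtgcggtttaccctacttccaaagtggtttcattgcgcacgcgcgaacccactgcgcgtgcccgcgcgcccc
Mrps2, chr2:28467966-28468065, plus strand: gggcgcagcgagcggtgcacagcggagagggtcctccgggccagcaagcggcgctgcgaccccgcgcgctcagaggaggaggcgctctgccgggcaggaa

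The second set holds the full ETS letters CCGGAAGT, or ACTTCCGG on the other strand, in capitals. In Mrpl43, Mrpl51 and Mrps27 these 8 letters lay under an ETS1 peak in all 4 libraries, and in Mrpl3 and Mrpl48 in none. These 5 genes were chosen after their values were seen. Mrpl48 has 4 starts in the table, of which the start with the motif is shown.
Mrpl43, chr19:45006443-45006542, minus strand: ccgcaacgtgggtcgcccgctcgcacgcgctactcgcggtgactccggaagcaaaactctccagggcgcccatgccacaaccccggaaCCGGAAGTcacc
Mrpl51, chr6:125192100-125192199, plus strand: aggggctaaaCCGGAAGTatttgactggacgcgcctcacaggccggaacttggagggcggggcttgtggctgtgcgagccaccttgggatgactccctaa
Mrps27, chr13:99344686-99344785, plus strand: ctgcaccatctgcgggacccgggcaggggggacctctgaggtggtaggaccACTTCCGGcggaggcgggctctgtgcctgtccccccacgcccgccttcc
Mrpl3, chr9:105053168-105053267, plus strand: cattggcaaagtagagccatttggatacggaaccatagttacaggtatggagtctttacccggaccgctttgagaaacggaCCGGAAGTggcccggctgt
Mrpl48, chr7:100583131-100583230, minus strand: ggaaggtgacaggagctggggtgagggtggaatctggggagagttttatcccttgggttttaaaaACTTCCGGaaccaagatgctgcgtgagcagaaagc

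H3K27ac was found at nearly all of these genes. In the WT libraries 70 and 69 of the 78 genes had a peak, and in the KO libraries 74 and 74, while 45.6, 45.2, 46.8 and 48.1% of all genes were called in the same libraries. All 4 libraries called 69 genes (88.5%), against 42.6% of all protein-coding genes. The subunits were close, with 45 of 51 large and 23 of 26 small subunit genes called in all 4. The cytosolic ribosomal protein genes stood at 75 of 83 (90.4%) and the nuclear genes of oxidative phosphorylation subunits at 72 of 88 (81.8%). The bar plot of called genes gives these shares by library for all 3 antibodies.

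**Figure D1:**
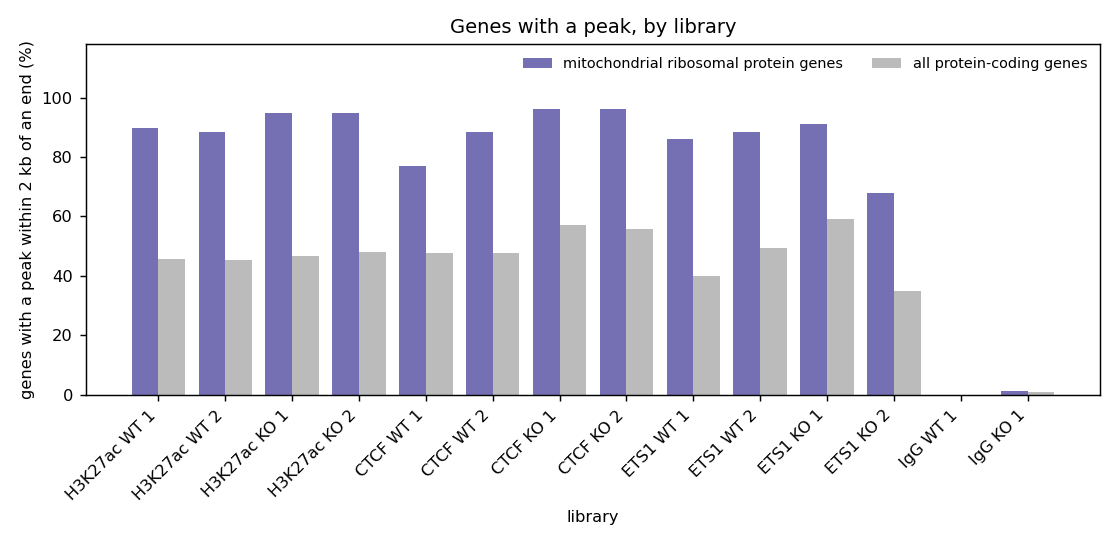
Percentage of the 78 mitochondrial ribosomal protein genes (purple) and of all 21887 protein-coding genes (grey) with a peak within 2 kb of a gene end, for each of the 14 libraries. The purple bars stand above the grey ones for H3K27ac, CTCF and ETS1 in every library, and IgG called 0 and 1 of the 78 genes.

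The acetylated stretches were mostly short. The median gene had 719 bp of H3K27ac in WT and 888 bp in KO, as means over 2 libraries. Among genes called in all 4 libraries the WT median was 779 bp, against 986 bp for all such genes. Those with the most H3K27ac in WT were Mrps34, Mrps18b, Mrpl2, Mrps18a and Mrpl43, and all 5 have at least 1 neighbouring gene within 2 kb. Mrps18a had only 304 and 348 bp in WT within 2 kb of its start, and the rest lay at its far end. Mrps34 (chr17:24895120-24896289) had 3003 and 2869 bp in WT and 3553 and 3628 bp in KO, with Eme2, Nme3 and Mapk8ip3 in the same window. Mrpl2, whose bacterial counterpart lies near the peptidyl transferase centre, had 2116 and 2187 bp in WT and 2447 and 2368 bp in KO, and its start lies 141 bp from that of Klc4. Both genes had the higher values in KO, without overlap. Mrpl43 was nearly level, at 2002 and 2016 bp in WT and 1998 and 2094 bp in KO.

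At the other extreme, Mrpl42, Mrpl50, Mrps17, Mrpl19 and Mrps33 had the least H3K27ac in WT among genes called in every library. Mrpl42, a protein found in mitochondrial but not bacterial ribosomes, had 157 and 187 bp in WT and 275 and 175 bp in KO. Mrps17 had 343 and 225 bp in WT and 362 and 358 bp in KO, and Mrps33 had 319 and 367 bp against 365 and 342 bp. The genotypes overlapped at Mrpl42 and Mrps33.

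**Figure D2:**
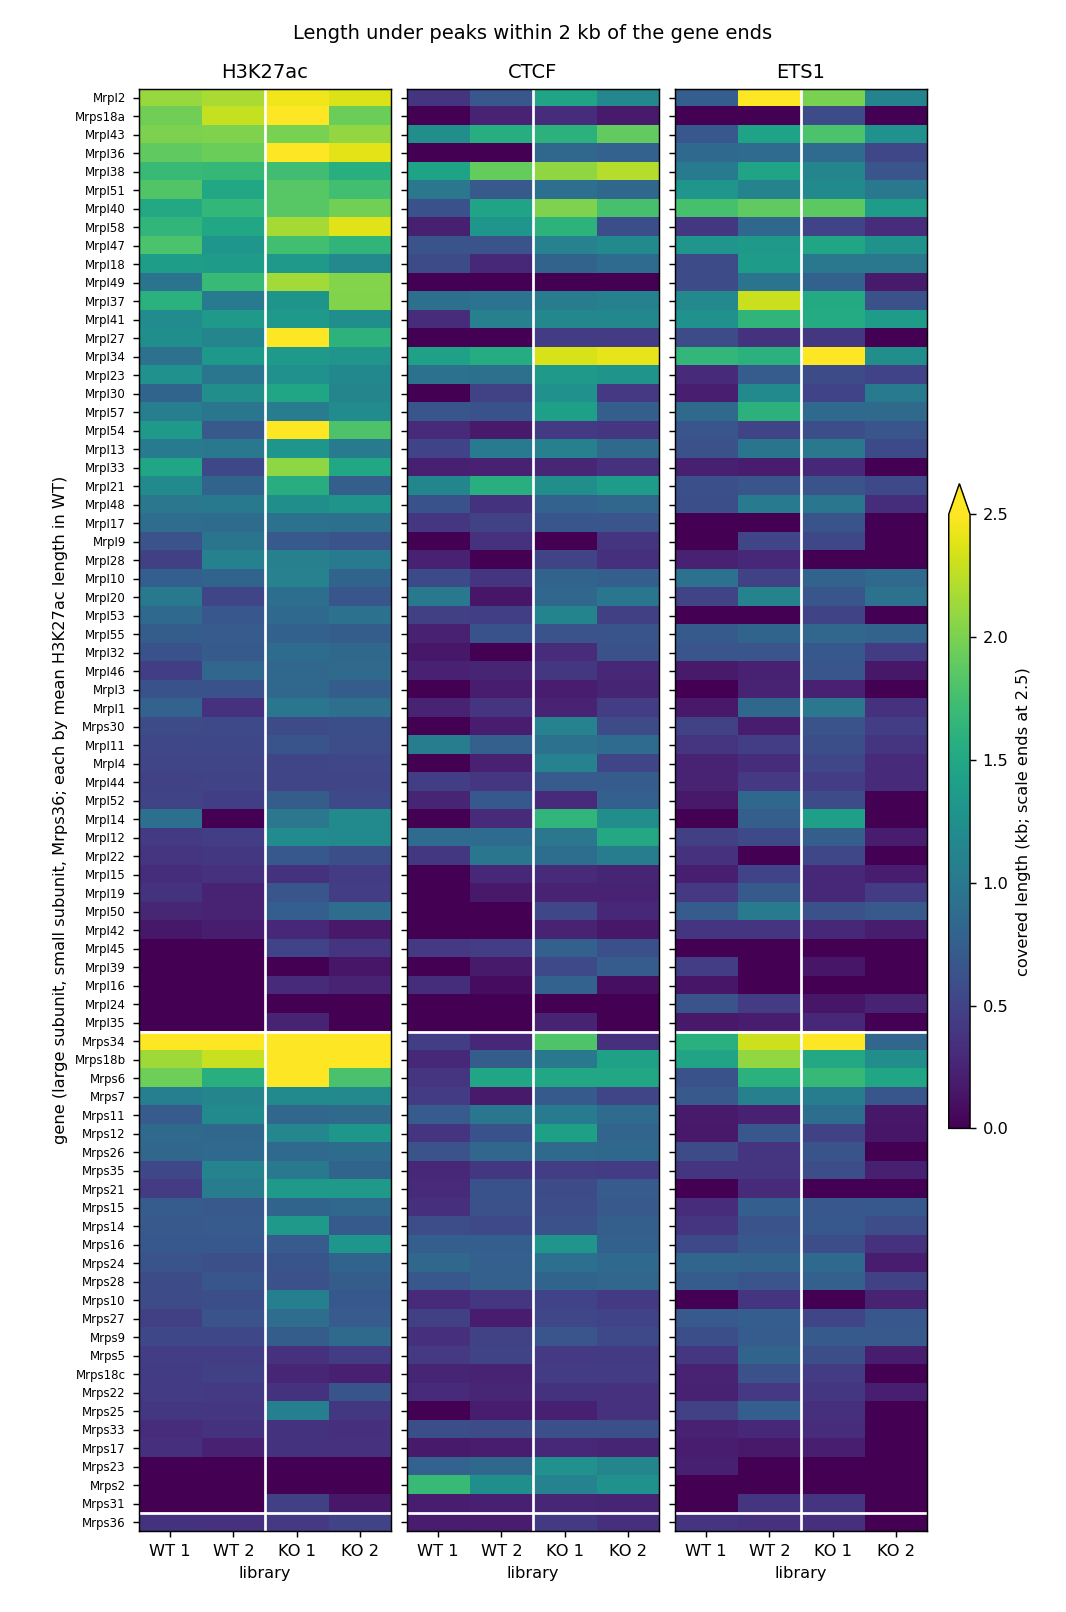
Length under peaks within 2 kb of the gene ends (colour, kb, scale ending at 2.5) for the 78 genes (rows) in the 4 libraries of each antibody (columns). Large subunit genes stand above small subunit genes and Mrps36 at the foot, each block ordered by mean H3K27ac length in WT, from Mrpl2 and Mrps34 down. White lines part the genotypes and the blocks.

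Mrpl24, Mrps2 and Mrps23 had no H3K27ac peak in their windows in any library. For Mrps2 and Mrps23 this came from the gene model. The RefSeq promoter table starts Mrps2 2115 bp inside the nearest gene end and Mrps23 7119 bp inside, beyond the 2 kb windows. Within 2 kb of these table starts, Mrps2 had 453 and 436 bp of H3K27ac in WT and 722 and 627 bp in KO. Mrps23, around its table start, had 697 and 888 bp in WT and 1150 and 1183 bp in KO. Both genes were thus acetylated in all 4 libraries at the inner start, with the KO values higher. Mrpl24, whose bacterial counterpart binds near the tunnel exit, had none at its table start either, and no CTCF peak, but ETS1 peaks in all 4 libraries. Measured at the table starts, 61 of the 69 genes in the table had H3K27ac in all 4 libraries, against 60 at the gene ends. Of all genes measured at table starts 43.1% had it, and at the gene ends 7646 of the 17492 genes of the table.

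The genotypes were compared by H3K27ac length in the same windows. Both KO libraries exceeded both WT libraries at 41 of the 75 genes with a peak (54.7%), against 49.7% of all genes with a peak, so the share lay near the background of these libraries. Both WT libraries were higher at 3 genes (4%), against 4.83% of all. The log2 ratio of KO over WT length, with 0.1 kb added to each mean, had a median of 0.27 for these genes and 0.22 for all genes. Cytosolic ribosomal protein genes had both KO libraries higher at 59 of 78 genes with a peak and a median of 0.48, and oxidative phosphorylation genes at 48 of 76 with a median of 0.28. No difference between the lists was tested.

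Mrpl45, Mrps31 and Mrpl16 had H3K27ac in both KO libraries and in neither WT library, a pattern that 2.33% of all genes with a peak had. Mrpl45 (chr11:97314923-97329920), a large subunit protein that helps to hold the ribosome at the inner membrane, was listed at 0 in WT and had 506 and 376 bp in KO. Mrps31, of the small subunit, was at 0 in WT and had 471 and 158 bp in KO. Mrpl16, of the large subunit, was at 0 in WT and had 297 and 250 bp in KO. No gene of the 78 had the opposite pattern, which 0.534% of all genes had. Mrpl14, Mrpl35 and Mrpl39 were also called in only some libraries: Mrpl14 lacked a peak in WT replicate 2, Mrpl35 had 246 bp in KO replicate 1 alone, and Mrpl39 had 153 bp in KO replicate 2 alone. These 3 were named after their values were seen.

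Among genes with H3K27ac in both genotypes, the greatest ratios without overlap were at Mrpl50 and Mrpl12. Mrpl50 had 271 and 250 bp in WT and 746 and 892 bp in KO, a log2 ratio of 1.35. Mrpl12 (chr11:120484637-120488754), a stalk protein that also binds the mitochondrial RNA polymerase, had 421 and 455 bp in WT and 1202 and 1196 bp in KO, a log2 ratio of 1.27. At both genes each KO library was above each WT library by more than the spread within a genotype. Mrpl50 shares its promoter with Zfp189, whose start lies 93 bp away. Mrps18b, a small subunit protein beside Ppp1r10 and Atat1, had 2145 and 2289 bp in WT and 3808 and 3547 bp in KO, a log2 ratio of 0.71.

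The 3 genes with more H3K27ac in WT were Mrps18c, Mrps5 and Mrpl18. Mrps18c had 434 and 471 bp in WT and 270 and 219 bp in KO, a log2 ratio of -0.68. Mrps5 had 454 and 457 bp against 356 and 432 bp, a ratio of -0.17. Mrpl18, a large subunit protein, had 1388 and 1383 bp in WT and 1349 and 1178 bp in KO, a ratio of -0.12. At Mrps5 and Mrpl18 the gap between genotypes was smaller than the gap between the 2 KO libraries. All 3 share a promoter with a neighbour (Helq, Zfp661 and Tcp1). The 3 genes of the Mrps18 family therefore differed in these windows. Mrps18b was higher in KO and Mrps18c higher in WT, while Mrps18a overlapped at 1961 and 2278 bp in WT and 2581 and 1938 bp in KO. Most of the Mrps18a length lay at its far gene end. Within 2 kb of its start it had 304 and 348 bp in WT and 349 and 352 bp in KO, the KO values barely higher.

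**Figure D3:**
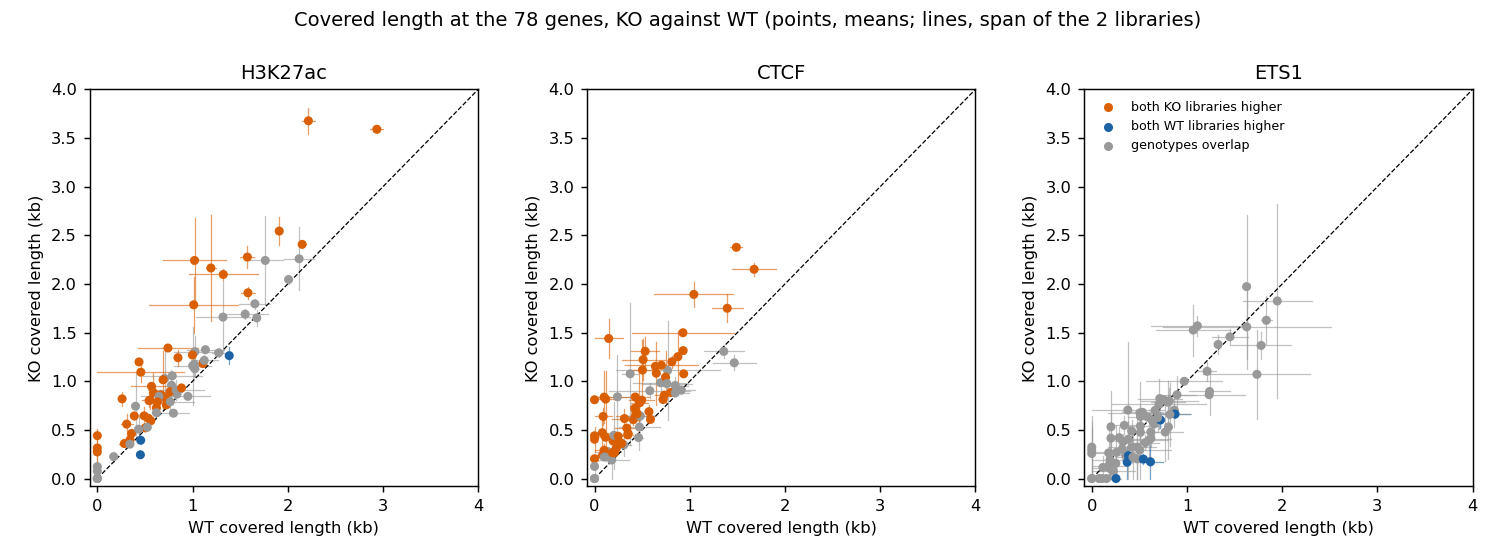
Mean length under peaks in KO (vertical axis, kb) against WT (horizontal axis, kb) at the 78 genes for each antibody, with lines for the span of the 2 libraries and a dashed line of equality. Both KO libraries were higher (orange) at 41 genes for H3K27ac and 54 for CTCF, and both WT libraries (blue) at 3 genes for H3K27ac and 7 for ETS1.

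CTCF peaks were called in all 4 libraries at 58 of the 78 genes (74.4%), against 42.8% of all genes. Among genes with H3K27ac in all 4 libraries the shares were alike, at 53 of 69 (76.8%) for the ribosomal genes and 75.8% for all. The WT libraries differed from each other, with 60 and 69 genes called, while both KO libraries called 75. Of all genes, 47.7 and 47.7% were called in WT and 57 and 55.9% in KO. The subunits also differed in this count. Of the 26 small subunit genes 25 were called in all 4 libraries, the exception being Mrps25, against 32 of 51 large subunit genes (62.7%). Mrpl24 and Mrpl49, both of the large subunit, had no CTCF peak at all. This division by subunit was seen in the data and was not tested.

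The CTCF peaks at these genes were of middling rank within their lists. A peak's percentile orders it by the authors' −log10 q inside its own list, with 100 as the best. The median over called genes was 54.8 and 47.1 in WT and 60.4 and 58.8 in KO, against 53.6, 52.7, 62.4 and 60.5 for all called genes. Mrps16, Mrps15, Mrps12, Mrpl53 and Mrpl21 ranked best by their weakest library, and the first 3 encode small subunit proteins. Mrps16 lay at the 97.1 and 96.5 percentiles in WT and 99.4 and 99.4 in KO, while Mrps15 reached 88.2 and Mrps12, the counterpart of a bacterial decoding-site protein, 87.9 in their weakest library. The core letters AGGGGGC of the CTCF motif, or GCCCCCT, stood in the promoters of 3 of 69 genes (4.35%), against 14.5% of all genes in the table and 18.6% of those with H3K27ac in all 4 libraries.

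CTCF length was higher in both KO libraries at 54 of the 76 genes with a CTCF peak (71.1%), against 56.7% of all genes with a peak. The share was 63.5% for genes with H3K27ac in all 4 libraries. It was 65.3% for oxidative phosphorylation genes and 61.5% for cytosolic ribosomal protein genes, and no difference was tested. CTCF length was higher in both WT libraries at 0 of the 76 genes, against 2.54% of all. The median log2 ratio was 0.56, beside 0.44 for all genes. When the lists were trimmed to an equal number of top-scored peaks, the KO libraries were both higher at 44 genes and the WT libraries at 0. Of all genes with a peak these were 48 and 4.19%. How many of the 78 genes kept a peak after trimming is not given, so the counts and these shares differ in base. The median after trimming was 0.37, beside 0.30 for all genes. The median was 0.36 without WT replicate 1, beside 0.42 for all genes, so the excess over other genes turned with that library, which called the fewest of the 78 genes.

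Mrpl36, Mrpl27, Mrpl50 and Mrpl42 had CTCF peaks in both KO libraries and neither WT library (7.42% of all genes with a peak did), and 0 genes had the opposite pattern (0.154% of all). All 4 encode large subunit proteins and were listed at 0 in WT. Mrpl36 (chr13:73328503-73332178) had 835 and 785 bp in KO. Mrpl50 had 531 and 277 bp, Mrpl27 440 and 440 bp, and Mrpl42 245 and 162 bp. Each of the 4 had H3K27ac in both WT libraries, so the absent CTCF calls were at acetylated genes. Mrpl14 had 0 and 298 bp in WT and 1643 and 1237 bp in KO, a log2 ratio of 2.63, and Mrps30 had 0 and 201 bp against 1105 and 568 bp, a ratio of 2.22. At both of these the KO values lay apart from the WT values.

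Longest in WT were the CTCF stretches at Mrpl38, Mrpl34, Mrps2, Mrpl43 and Mrpl21. Mrpl34 (chr8:71464926-71465753) had 1427 and 1552 bp in WT and 2346 and 2408 bp in KO, a log2 ratio of 0.64. Mrps2 had 1694 and 1241 bp in WT and 1111 and 1269 bp in KO, and Mrpl21 had 1146 and 1570 bp against 1240 and 1374 bp. In these gene-end windows the genotypes were apart at Mrpl34 and overlapped at Mrps2 and Mrpl21. The table start of Mrps2 lies outside its windows. Within 2 kb of that start, CTCF covered 1196 and 1169 bp in WT and 1381 and 1318 bp in KO, without overlap. The smallest log2 ratios without overlap were 0.04 at Mrps33, with 598 and 577 bp in WT and 608 and 608 bp in KO, and 0.13 at Mrps24, with 837 and 766 bp against 914 and 856 bp.

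ETS1 protein was called in all 4 libraries at 52 of the 78 genes (66.7%), against 30.5% of all genes. Among genes with H3K27ac in all 4 libraries the shares were 51 of 69 (73.9%) and 67.6%. By library, 67 and 69 of the genes were called in WT and 71 and 53 in KO, the last from the shortest ETS1 list, where 34.9% of all genes were called against 39.9, 49.3 and 59% in the others. By subunit, ETS1 was called in all 4 libraries at 36 of 51 large and 16 of 26 small subunit genes. All 3 antibodies were called in all of their libraries at 41 of the 78 genes (52.6%), against 24.1% of all genes. Among genes with H3K27ac in all 4 libraries the counts were closer, at 41 of 69 ribosomal genes and 5268 of 9321 genes.

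ETS1 peaks at these genes ranked high within their lists. The median percentile over called genes was 79.4 and 90 in WT and 91.3 and 77 in KO, above the 69.3, 76.2, 84.3 and 61.2 of all called genes in the same libraries. Mrpl47 (chr3:32727497-32736755), a large subunit protein at the tunnel exit, lay at the 99.1 and 99.7 percentiles in WT and at 99.6 and 99.8 in KO. Its ETS1 length was 1308 and 1347 bp in WT and 1472 and 1284 bp in KO, so the genotypes overlapped. In its promoter, printed above, the letters CGGAAG begin 31 bases before the start. The next ranks were held by Mrps28, Mrpl54, Mrpl34 and Mrpl19, whose weakest libraries lay at 97.2, 96.8, 96.2 and 95.1. Mrpl34 had 1657 and 1596 bp of ETS1 in WT and 2712 and 1234 bp in KO, with the 2 KO libraries on either side of WT.

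By ETS1 length in WT, Mrps34, Mrpl40, Mrps18b, Mrpl37 and Mrpl2 came first. Mrps34 had 1588 and 2310 bp in WT and 2825 and 826 bp in KO. Mrpl40 had 1775 and 1893 bp in WT and 1873 and 1381 bp in KO, and Mrpl2 had 746 and 2509 bp against 1993 and 1126 bp. The genotypes overlapped at all 3, and the 2 libraries of a genotype differed several-fold at Mrps34 and Mrpl2.

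No gene of the 78 had more ETS1 length in both KO libraries, against 5.35% of all genes with a peak. Both WT libraries were higher at 7 of 76 genes (9.21%), against 9.94% of all. After trimming to equal peak numbers the split was 2 genes higher in KO and 6 higher in WT, against 9.42 and 13.2% of all genes with a peak. With a −log10 q of at least 5 it was 2 and 3, against 4.75 and 5.84%. For both settings the number of the 78 genes with a peak is not given, so counts and shares differ in base. The median log2 ratio was -0.11 for these genes and 0.03 for all. For these genes it was 0.06 without WT replicate 2 and 0.12 without KO replicate 2, beside 0.51 and 0.36 for all genes. The sign of the median thus rested on single libraries.

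The 7 genes were Mrpl28, Mrps25, Mrpl24, Mrps36, Mrpl42, Mrpl50 and Mrps27. Mrpl28 (chr17:26123503-26126613), of the large subunit, had 226 and 284 bp in WT and was listed at 0 in both KO libraries, a pattern of 0.656% of all genes with a peak. The opposite pattern was found at 0 of the 78 genes and at 0.926% of all. Mrpl24 had 644 and 440 bp in WT and 151 and 249 bp in KO, a log2 ratio of -1.10. Mrps25 had 485 and 749 bp in WT and 343 and 0 bp in KO, and Mrps36 had 389 and 355 bp against 336 and 0 bp. The zeros came from KO replicate 2, the library with 9344 peaks. Mrpl42 had 390 and 380 bp in WT and 278 and 194 bp in KO, a ratio of -0.53. Mrpl50 had 724 and 1027 bp against 623 and 703 bp, and Mrps27 701 and 743 bp against 524 and 679 bp. At Mrpl42 and Mrpl50 the genotypes thus did not overlap, in opposite directions for ETS1 and CTCF. For ETS1 at Mrpl50, Mrps27, Mrps25 and Mrps36, the gap between genotypes was smaller than the gap between the 2 libraries of either genotype. At Mrpl24 it was smaller than the gap between the 2 WT libraries.

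Mrpl45 had no ETS1 peak in any library, neither at its gene ends nor around its table start. Mrps2 had none at its gene ends, and around its table start it had 0 and 185 bp in WT and 212 and 0 bp in KO. The promoters of both, printed above, hold no CGGAAG or CTTCCG in the 100 bases shown. That does not set them apart, since Mrpl11 and Mrps15 also lack these letters there and had ETS1 in all 4 libraries. Over promoters of 300 bp, 21 of 30 genes without the letters had ETS1 in all 4 libraries, against 22 of 39 with them. For all genes the shares were 24.4% without and 54.6% with.

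**Figure D4:**
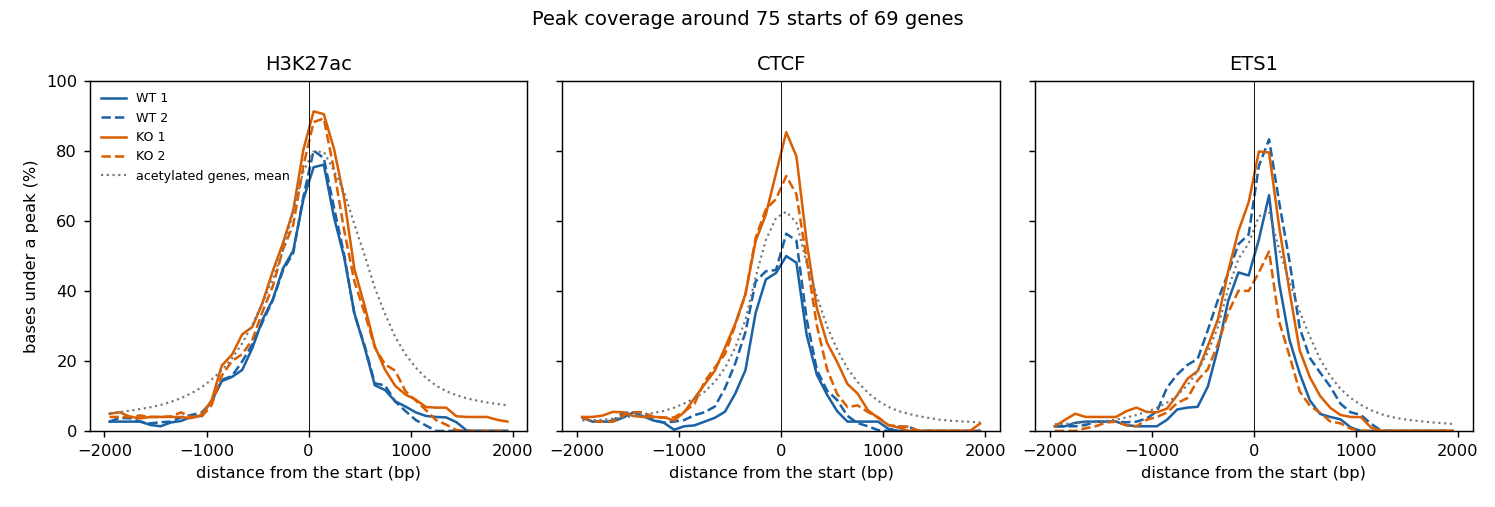
Percentage of bases under a peak (vertical axis) in 100 bp steps from 2 kb before to 2 kb after 75 starts of 69 genes, for each library (WT blue, KO orange, replicate 2 dashed) and for genes with H3K27ac in all 4 libraries (grey dots, mean of 4 libraries). All 3 antibodies peak within 200 bp after the start, and the H3K27ac curves of these genes fall off sooner than the grey curve downstream.

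Peaks of all 3 antibodies sat at the start rather than the far end. Among the 51 genes longer than 4 kb with a known strand, the outer start end had H3K27ac in all 4 libraries at 42 genes, CTCF at 32 and ETS1 at 29. These were 82.4, 62.7 and 56.9% of the genes, against 46.8, 42.4 and 33.8% of all genes of that length. The other end had them at 5, 8 and 2 genes (9.8, 15.7 and 3.92%), near the 8.92, 12.2 and 2.82% of all genes, which thus also had more calls at the start end. Mrpl10 was among these for all 3 antibodies, and Mrps18b for H3K27ac and ETS1, as genes chosen after their values were seen. Around the starts of the promoter table, the highest coverage in every library lay in the first 200 bp after the start. The midpoint of the ETS1 peak nearest the start had a median of 62 and 92.5 bp after it in WT and 58.5 and 17 bp in KO. These genes had less H3K27ac beyond the start than others, with 365.5 and 366 bp after the start as the WT median, against 549 and 544 bp for all genes with a peak there, while the medians before the start were 273.5 and 266 bp against 290 and 295 bp.

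A divergent neighbour went with more ETS1 calls. Of the 24 genes with a divergent start within 1 kb, 21 (87.5%) had ETS1 in all 4 libraries, against 22 of 45 (48.9%) without. Among all genes with H3K27ac in all 4 libraries the shares were 85% with and 64.7% without such a start. H3K27ac was called in all 4 libraries at 23 of 24 genes with such a start (95.8%) and 37 of 45 without (82.2%), against 87.5 and 39.7% of all genes. Its median WT length was 1066 bp with and 590 bp without, while all genes acetylated in the 4 libraries had 1162 and 944.5 bp. For CTCF the shares were close, at 18 of 24 (75%) and 34 of 45 (75.6%), against 67.2 and 40.9% of all genes and 73.5 and 76.4% of the acetylated genes. A window with a divergent start holds 2 promoters.

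Letters of known motifs were then counted in promoters of 300 bp, from 250 before to 50 after the start, on both strands, in 69 genes with 75 promoters. The ETS letters CCGGAAGT stood in 12 of the 69 genes (17.4%), against 5.69% of the 17492 genes in the table and 10.8% of those with H3K27ac in all 4 libraries. The shorter CGGAAG, which CCGGAAGT contains, stood in 39 (56.5%), against 23.5% and 39.7%. The NRF1 letters GCGCATGCG stood in 7 genes (10.1%), against 2.61% and 4.79%, and the YY1 letters AAGATGGCG in 8 (11.6%), against 2.14% and 4.21%. These 4 counts lay above both references. The GC box GGGCGG was in 34 genes (49.3%), near the 49.2% of all genes and below the 70.1% of acetylated genes. CCAAT was in 27 (39.1%), against 42.3% and 42.5%, and TATAAA in 5 (7.25%), against 14.8% and 7.62%. No test was made of any of these shares.

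**Figure D5:**
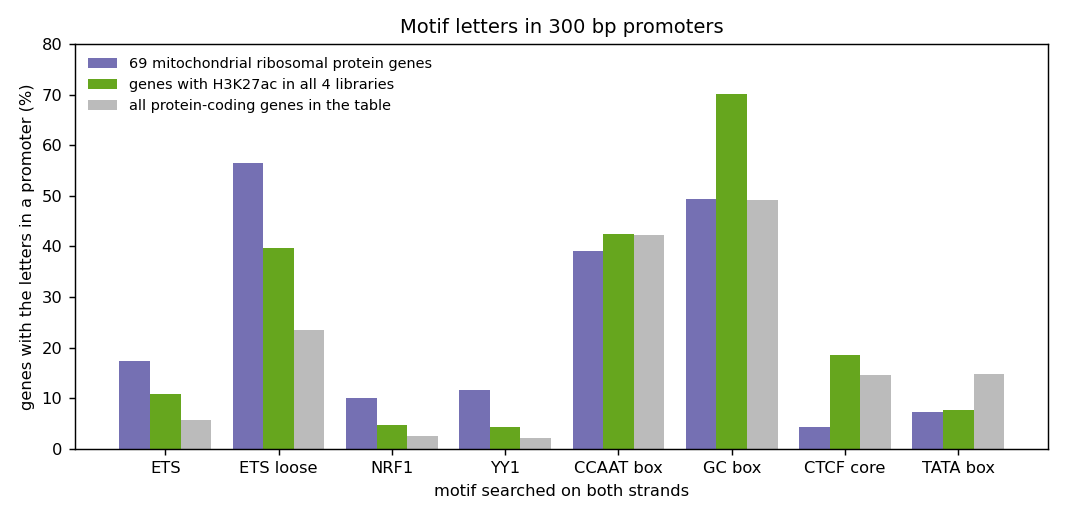
Percentage of genes with the letters of each motif in a 300 bp promoter (vertical axis), for 69 mitochondrial ribosomal protein genes (purple), genes with H3K27ac in all 4 libraries (green) and all genes of the promoter table (grey). The purple bars are the highest for both ETS motifs, NRF1 and YY1, and the GC box bar stands at 49.3% against 70.1% for the acetylated genes.

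Among these genes, ETS1 calls in all 4 libraries were not more frequent where the promoter held the ETS letters. This was not tested. A call is any ETS1 peak within 2 kb of a gene end, so it need not lie at the letters. The shares of all genes below include genes without H3K27ac, so they are not a like reference. Of the 12 genes with CCGGAAGT, 6 (50%) had ETS1 in all 4 libraries, against 37 of the 57 without it (64.9%). For all genes of the table the shares were 61.2% with and 29.7% without. CGGAAG gave 22 of 39 (56.4%) with and 21 of 30 (70%) without, and 54.6% against 24.4% for all genes. The GC box went the other way, with 27 of 34 (79.4%) against 16 of 35 (45.7%), and 46.8% against 16.6% for all genes.

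At the 12 genes the position of CCGGAAGT could be set against each ETS1 peak. It lay inside a peak in all 4 libraries at Mrpl18, Mrpl43, Mrpl51 and Mrps27, in 3 libraries at Mrpl27, Mrps18c and Mrps26, in 2 at Mrpl52, in 1 at Mrpl33 and Mrps22, and in none at Mrpl3 and Mrpl48. In Mrpl43, which shares its promoter with the mitochondrial helicase gene Twnk (starts 116 bp apart), the letters begin 12 bases before the start, and ETS1 covered 678 and 1454 bp in WT and 1789 and 1264 bp in KO. In Mrpl51 they begin 90 bases before the start, with 1306 and 1117 bp of ETS1 in WT and 1200 and 1005 bp in KO. In Mrps27 they begin 49 bases before it. Mrpl51 was also the gene with an IgG peak in KO, of 502 bp and ending 145 bp before the gene start, which does not reach the motif. In Mrpl3 the letters begin 19 bases before the start, and ETS1 peaks in the gene's windows, of 235 bp in WT replicate 2 and 227 bp in KO replicate 1, did not reach them. Mrpl48 had ETS1 peaks in all 4 libraries at its outer ends, while its motif lies at an inner start 25171 bp from the nearest gene end. ETS1 peaks lay around that inner start too, over 182 and 243 bp in WT and 231 and 200 bp in KO, without reaching the motif.

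Other genes of mitochondrial translation were measured in the same windows. Of all protein-coding genes, 42.6% had H3K27ac in all 4 libraries, and 49.7% of those with a peak had both KO libraries higher. The 5 ribosome members under other names (Dap3, Ptcd3, Aurkaip1, Chchd1 and Gadd45gip1) all had H3K27ac in all 4 libraries. At 3 of the 5 (60%) both KO libraries were higher. Ptcd3, a small subunit protein with RNA-binding repeats, had 704 and 781 bp in WT and 2682 and 2299 bp in KO, a log2 ratio of 1.62 without overlap. Of 17 genes for assembly of the ribosome and modification of its RNA, 16 had H3K27ac in all 4 libraries. Both KO libraries were higher at 5 of these 16 (31.2%), below the share of all genes. Both WT libraries were higher at 0, against 4.83% of all genes with a peak. Gtpbp10, a GTPase of large subunit assembly, had no peak of any antibody. Ptcd3 and Gtpbp10 were named after their values were seen. For CTCF 12 of the 16 assembly and modification genes with a peak (75%) were higher in both KO libraries, against 56.7% of all genes with a peak. Eral1, Ddx28 and Mrm3 had CTCF in KO alone, at 406 and 439, 945 and 693, and 174 and 173 bp. Of all genes with a CTCF peak, 7.42% had that pattern. Of 14 mitochondrial transcription and translation factors, 13 had H3K27ac in all 4 libraries and 8 (57.1%) were higher in both KO libraries. Polrmt, the mitochondrial RNA polymerase, was listed at 0 in WT for H3K27ac and had 153 and 161 bp in KO. Of all genes with an H3K27ac peak, 2.33% were called in KO alone.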

How the data were processed

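Peak lists of 14 CUT&RUN libraries of Th1 cells were used, each with 9 columns and no header, 1 list per library, with no read counts and so an unknown depth. Per the submitters' processing notes, the authors aligned reads with BWA to GRCm38. Not given in the sources used here are the peak caller's version and options, control use and duplicate handling. The authors deposited for each peak a score (10 times −log10 q, cut to a whole number, from the values), a fold ratio of enrichment, −log10 p and −log10 q, which were made within each list and served here only to rank and filter its peaks.

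Windows of 2 kb around both ends of 21887 RefSeq protein-coding genes were intersected with the lists (Python 3.11.15, numpy 2.4.6, pandas 2.3.3). The interval arithmetic was tested on simulated data. A gene was called from 1 bp on. Log2 ratios are of genotype means plus 0.1 kb. IgG lists were counted in the same way.

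Named genes are those without a peak where most have one, those called in 1 genotype only, the 5 greatest and smallest ratios without overlap, the 5 longest and shortest in WT, and the 5 best ranked for ETS1 and CTCF, with others marked as chosen after their values were seen. Members and lists were chosen with earlier results of these data known. The promoter table (GRCm38.p6) matched 69 of 78 genes, and the gene ends of Mrps2, Mrps23 and Mrpl48 lie over 2 kb from a table start, so windows at table starts were added as an alternative after the data were seen. Other alternatives were equal peak numbers, a −log10 q of at least 5, windows of 1 and 5 kb, 1 gene end only, 200 bp of overlap, a 1 kb pseudocount, and leaving out each library.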

Additional observations from a re-analysis of the deposited data

How the results depend on the processing

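With a −log10 q of at least 5, genes called in all 4 libraries were 34 for H3K27ac, 15 for CTCF and 8 for ETS1. The shares of all genes were 17.2, 12.3 and 4.26%. Both KO libraries were higher at 23, 26 and 2 genes, against 51.2, 54.2 and 4.75% of all genes with a peak. Both WT libraries were higher at 1 gene for CTCF and 3 for ETS1, against 2.01 and 5.84%. The medians of log2 KO over WT were 0.34 and 1.15 for H3K27ac and CTCF, beside 0.37 and 1.12 for all genes. For ETS1 the sign turned to 0.08, beside 0.4 for all genes. Fewer peaks are tested under this filter. With equal peak numbers 2 genes had more ETS1 in both KO libraries, against 9.42% of all genes with a peak. These 2 were 25% of the genes apart in place of 0%, and at the stricter q the share was 40%. Windows of 5 kb gave 1 gene with more H3K27ac in both WT libraries, 2 for CTCF, and 1 with more ETS1 in both KO libraries. The shares of all genes with a peak were 5.04, 2.74 and 4.88%. Windows of 1 kb gave an H3K27ac median of 0.21, beside 0.17 for all genes. A 1 kb pseudocount gave 0.12 for H3K27ac and 0.22 for CTCF, beside 0.11 and 0.18. Windows at the table starts kept all counts within 1.5 times.

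Leaving out each library in turn loosens the definition of no overlap. How many of the 78 genes had a peak in the remaining libraries is not given. The counts of genes higher in 1 genotype thus differ in base from the shares of all genes with a peak. Genes called in all remaining libraries ranged from 69 to 70 for H3K27ac, 58 to 68 for CTCF and 52 to 62 for ETS1. The shares of all genes were 42.8 to 43.6, 42.9 to 46.6 and 30.7 to 37%. Both KO libraries were higher at 50 to 55, 59 to 67 and 0 to 32 genes. Of all genes with a peak these were 61.9 to 67.3, 66.5 to 75.5 and 7.59 to 52.7%. Both WT libraries were higher at 5 to 9, 0 to 4 and 9 to 43 genes. Of all genes with a peak these were 10.3 to 13.3, 4.46 to 10.6 and 12.5 to 44.8%. The medians ranged from 0.22 to 0.28, 0.36 to 0.62 and -0.50 to 0.12. For all genes the medians ranged from 0.19 to 0.23, 0.35 to 0.48 and -0.72 to 0.51. The ETS1 median of the 78 genes was 0.06 without WT replicate 2 and 0.12 without KO replicate 2. The 32 genes stood against 52.7% of all genes and came without KO replicate 2, and the 43 against 44.8% without KO replicate 1. No paired analysis was possible because by the titles both WT libraries repeat 1 biological replicate while each KO library has its own, so equal numbers pair nothing, and no test was made. Depth is unknown, and longer lists can follow from depth as well as from genotype, which cannot be told apart here.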
